A study of Rattus norvegicus with 10 samples.

Results

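Astrocytes keep the fluid around neurons in order, and 9 genes that carry out much of this work were examined in the rat hippocampus 3 months after status epilepticus. They were Slc1a2, Slc1a3, Glul, Kcnj10, Aqp4, Gja1, Gjb6, Aldh1l1 and Slc4a4, named by symbol, and all 9 were found among the 32041 features (rows with a RefSeq transcript identifier) of the mRNA count matrix. Where a symbol had several rows, the row with the highest mean count stood for the gene. All 9 genes passed the filter on low counts, which left 22447 features for testing.

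The animals were 10 males of the outbred Sprague-Dawley strain, with a weight of 290 to 320 g. All 10 carried electrodes in the left lateral amygdala. In 5 stimulated rats (rats 6 to 10) trains of 400 µA pulses at 60 Hz were given for 30 min. The status epilepticus that followed, a seizure that does not stop by itself, was ended with diazepam (20 mg/kg), and 5 sham rats (rats 1 to 5) received no current. The methods state that every stimulated rat taken into the study later had spontaneous seizures, seen in video and EEG recordings before the end of the experiment. Sham rats are not stated to have received diazepam, so status epilepticus, the later seizures and the drug cannot be told apart. The tissue was the part of the left hippocampus with CA3 and the dentate gyrus, and polyadenylated RNA was read in 36 cycles. The labels do not tie a seizure record to each rat.

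Released glutamate is taken up by astrocytes through sodium-coupled transporters and turned into glutamine, which returns to neurons. Potassium set free by firing neurons enters astrocytes through inward rectifier channels and is spread through gap junctions, while water channels sit on the endfeet that wrap blood vessels. Bicarbonate transport sets the pH around synapses. These functions have long been studied in epileptic hippocampus, where astrocytes also take on a reactive form marked by the filament protein Gfap.

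Levels are given as CPM, the counts of a row scaled to a common library size after TMM correction, which allows for the make-up of each library. CPM is not divided by transcript length, so levels are compared between rats and not between genes. Aligned counts ranged from 13552309 to 24086059 per rat, and ribosomal RNA records took 1.82% to 12.2% of them. Unaligned reads made up 32.8% to 37.1% in sham rats. In stimulated rats 6 to 10 they made up 35.6%, 32.0%, 41.4%, 42.9% and 45.1%, and their part in the gene values was not tested. In pieces of tissue, fewer astrocytes and less RNA per astrocyte cannot be told apart. Each sample was 1 rat, and no batch is given in the labels.

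By the edgeR quasi-likelihood test, 0 of the 9 genes differed between stimulated and sham rats at an adjusted p under 0.05, as did 0 (0%) of all tested features, whose lowest adjusted p was 0.376. At an unadjusted p under 0.05 there were 4 of the 9 genes, Aqp4, Slc1a2, Glul and Slc1a3, all 4 higher in stimulated rats and 0 lower. Over all features 2214 (9.86%) passed that unadjusted threshold, 6.7% higher and 3.16% lower in stimulated rats. In 7 of the 9 genes the log2 fold change was above 0, against 52.2% of all features. The median log2 fold change was 0.16 over the 9 genes and 0.01 over all features.

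**Figure D1:**
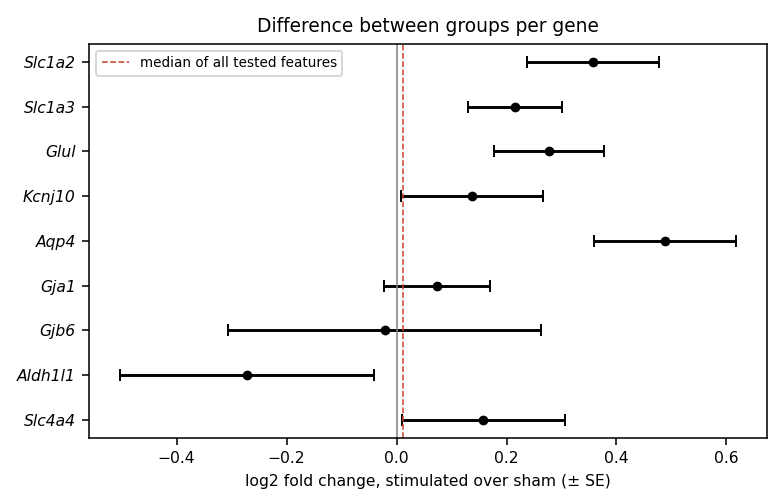
Log2 fold change of each gene, stimulated over sham (points, with bars of 1 SE from the edgeR fit of 5 against 5 rats); the dashed line is the median of all tested features. The values run from -0.27 for Aldh1l1 to 0.49 for Aqp4.

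Both glutamate transporters were higher on average in stimulated rats, with overlap between the groups. Slc1a2 (NM_017215), the transporter that does most of the glutamate uptake in the adult forebrain, stood at 182, 139.8, 139, 160.3 and 126 CPM in sham rats 1 to 5 and at 179, 193, 166, 241 and 177 CPM in stimulated rats 6 to 10. Rats 7 and 9 lay above every sham rat, and sham rat 1 lay above rats 6, 8 and 10. Group means were 149 ± 22.1 and 191 ± 29.5 CPM (SD, n = 5 each), and on the log2 scale the difference was 0.36 (SE 0.12, adjusted p = 0.409, edgeR). A second row of Slc1a2 (NM_001035233) held 44.0% to 48.2% of the reads of both rows in each rat, and had a log2 fold change of 0.33 with an adjusted p of 0.409 by edgeR.

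Slc1a3 (NM_019225), the other astrocyte glutamate transporter and the main one of radial glia and Bergmann glia, stood at 629, 515, 567, 552 and 599 CPM in sham rats and at 585, 749, 612, 691 and 687 CPM in stimulated rats. Rats 7, 9 and 10 were above the sham range and rats 6 and 8 within it. The means were 573 ± 43.6 and 665 ± 65.9 CPM (SD, n = 5 each), and the log2 fold change was 0.22 (SE 0.08, adjusted p = 0.432, edgeR). Its unadjusted p of 0.0239 passed 0.05, but reached 0.0757 at the most when 1 rat was left out. Without sham rat 2, sham rat 4 or stimulated rat 7, 3 and not 4 of the 9 genes passed the unadjusted threshold, and Slc1a3 was the gene that no longer did.

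Glul (NM_017073), glutamine synthetase, which joins glutamate and ammonia, stood at 1551, 1335, 1349, 1218 and 1447 CPM in sham rats and at 1575, 2020.0, 1809.6, 1414 and 1543 CPM in stimulated rats. Rats 6, 7 and 8 exceeded all sham rats, rat 6 by little, while rats 9 and 10 did not. The means of 1380.0 ± 125 and 1672 ± 241 CPM (SD, n = 5 each) differed by 0.28 on the log2 scale (SE 0.10, adjusted p = 0.418, edgeR). The rat with the highest Slc1a2 was not the one with the highest Glul: rat 9 stood at 161% of the sham mean for Slc1a2 and at 102.5% for Glul. Within each rat the ratio of Slc1a2 to Slc1a3 ranged from 0.21 to 0.29 in sham and from 0.26 to 0.35 in stimulated rats.

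Of 18 other genes of glutamate and glutamine handling, 0 passed even an unadjusted p under 0.05, and their median log2 fold change was 0.05. The lowest p among them was for Slc25a18, a mitochondrial glutamate carrier found mostly in astrocytes. It ranged from 80.3 to 98.9 CPM in sham rats and stood at 54.5 CPM in rat 7 and 38.3 CPM in rat 10, with the other stimulated rats between 78.2 and 86.5 CPM. Its log2 fold change was -0.38 (SE 0.18, adjusted p = 0.518, edgeR). The neuronal transporters Slc1a1 and Slc1a6 had log2 fold changes of 0.27 and -0.37, with adjusted p of 0.569 and 0.578 by edgeR.

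**Figure D2:**
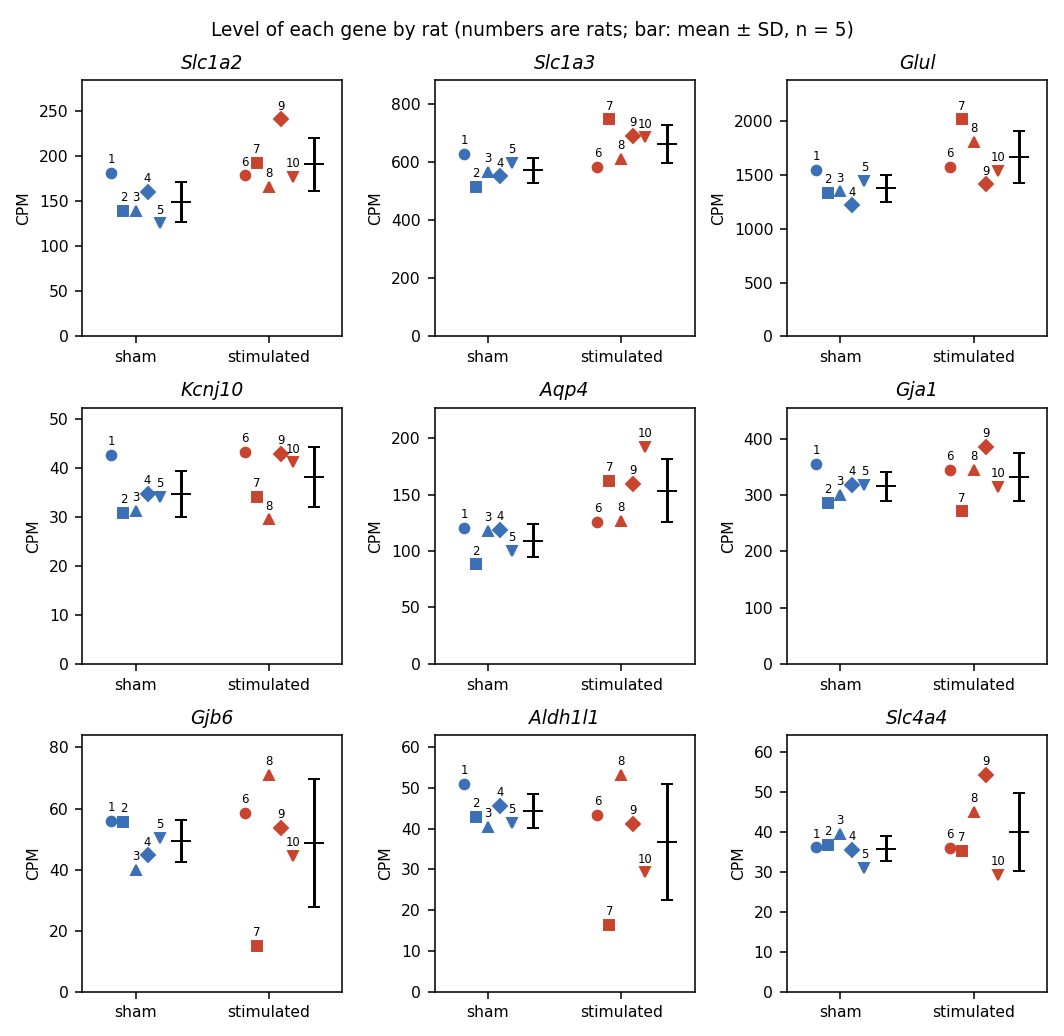
CPM of each of the 9 genes in each rat (points, numbered by rat; sham in blue, stimulated in red) with the group mean and SD in black, n = 5 rats each; each vertical axis starts at 0. Aqp4 is the gene whose groups do not overlap, and rat 7 lies far below all other rats for Gjb6 and Aldh1l1.

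Kcnj10 (NM_031602), the inward rectifier channel through which astrocytes take up potassium, stood at 42.7, 30.9, 31.3, 34.8 and 34.2 CPM in sham rats and at 43.3, 34.1, 29.6, 43.0 and 41.2 CPM in stimulated rats. The groups overlapped nearly in full: rat 8 was the lowest of all 10 rats and rat 6 the highest, with sham rat 1 close behind. The means were 34.8 ± 4.74 and 38.2 ± 6.11 CPM (SD, n = 5 each), and the log2 fold change was 0.14 (SE 0.13, adjusted p = 0.751, edgeR). Other potassium channels, the sodium pump and chloride transport were covered by 13 tested genes. Of these, 2 were higher and 0 lower at an unadjusted p under 0.05, and the median log2 fold change was 0.09. Kcnk1, a two-pore potassium channel, ranged from 46.9 to 66.1 CPM in sham rats and stood at 57.3, 104, 62.1, 185 and 110.4 CPM in rats 6 to 10. Rats 7, 9 and 10 were thus high and rats 6 and 8 within the sham range, and the log2 fold change was 0.85 (SE 0.26, adjusted p = 0.396, edgeR). The other was Lrrc8a, a subunit of the volume-regulated anion channel, at a log2 fold change of 0.29 (adjusted p = 0.420, edgeR).

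Aqp4 (NM_012825), the water channel of astrocyte endfeet, was the 1 of 9 genes whose groups did not overlap. It stood at 121, 88.2, 118, 119 and 100.0 CPM in sham rats and at 126, 162, 126, 159 and 192 CPM in stimulated rats. Rats 6 and 8 lay just above the highest sham rat and rats 7, 9 and 10 well above it. Groups without overlap were found in 1.29% of all features, 0.695% with stimulated rats higher and 0.597% with stimulated rats lower. The means were 109 ± 14.4 and 153 ± 27.8 CPM (SD, n = 5 each), and the log2 fold change of 0.49 (SE 0.13) had an unadjusted p of 0.00206 and an adjusted p of 0.376 by edgeR. Over the other tests and scalings the adjusted p ranged from 0.0803, by the likelihood ratio test, to 0.614, by the exact permutation test. With 5 against 5 rats the permutation test has a smallest possible unadjusted p, which groups without overlap reach. Adjusted over all features, of which 1.29% had such groups, that floor became 0.614. No feature could have a lower adjusted value by this test, so 0.614 does not measure the strength of the Aqp4 difference.

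Aqp4 had 4 rows in the matrix, and each held between 23.7% and 26.2% of their summed reads in every rat. The log2 fold changes of the 3 other rows were 0.49, 0.47 and 0.50. In the row NM_001142366 the groups overlapped by a little, with rat 6 at 118.9 CPM against 119.5 CPM in sham rat 1, but not when libraries were scaled by their size alone. Summed over the 4 rows, Aqp4 was at most 473 CPM in sham rats and at least 486 CPM in stimulated rats, and the log2 fold change was 0.47 (SE 0.12, adjusted p = 0.408, edgeR). How reads shared by several transcripts were counted is not given in the sources used here. The sum may hold the same read more than once, or a single row only a part of the reads of the gene. Between rats, the shares of the 4 rows varied about as much as separate counts would (chi-square 24.3 on 27 degrees of freedom, p = 0.615, chi-square test). The way of counting was not tested.

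The region around the start of Aqp4 is shown with those of Gja1 and Gjb6, the connexin pair whose ratio in rat 7 lay outside that of all other rats because Gjb6 was low there (values below). RefSeq windows of 300 bases, from 250 bases before to 50 bases after a start, were taken on the GRCr8 build, in the direction of the gene; all 9 genes had at least 1 window. Capitals mark each CG dinucleotide, the letters CG being the same on both strands. The 2 Aqp4 starts lie 916 bases apart on the minus strand of chromosome 18 (chr18:6798793-6799092 and chr18:6797877-6798176), Gja1 is on the plus strand (chr20:36302314-36302613) and Gjb6 on the minus strand (chr15:35410089-35410388).
Aqp4, upstream start: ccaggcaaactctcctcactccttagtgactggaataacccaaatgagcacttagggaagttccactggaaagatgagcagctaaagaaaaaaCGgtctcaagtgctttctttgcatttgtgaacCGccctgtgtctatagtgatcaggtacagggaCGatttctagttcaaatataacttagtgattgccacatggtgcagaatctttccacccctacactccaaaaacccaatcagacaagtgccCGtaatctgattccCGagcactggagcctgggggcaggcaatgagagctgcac
Aqp4, downstream start: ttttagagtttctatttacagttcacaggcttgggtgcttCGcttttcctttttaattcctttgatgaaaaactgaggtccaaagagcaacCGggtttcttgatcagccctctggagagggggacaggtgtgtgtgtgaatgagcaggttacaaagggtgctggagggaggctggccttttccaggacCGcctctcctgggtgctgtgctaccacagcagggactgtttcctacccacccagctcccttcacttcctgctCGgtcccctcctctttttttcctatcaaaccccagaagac
Gja1: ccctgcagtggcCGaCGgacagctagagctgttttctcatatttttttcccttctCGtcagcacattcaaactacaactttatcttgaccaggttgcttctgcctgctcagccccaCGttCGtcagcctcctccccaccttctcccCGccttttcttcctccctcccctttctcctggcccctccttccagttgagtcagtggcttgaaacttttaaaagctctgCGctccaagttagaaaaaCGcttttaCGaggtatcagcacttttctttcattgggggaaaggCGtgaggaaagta
Gjb6, upstream start: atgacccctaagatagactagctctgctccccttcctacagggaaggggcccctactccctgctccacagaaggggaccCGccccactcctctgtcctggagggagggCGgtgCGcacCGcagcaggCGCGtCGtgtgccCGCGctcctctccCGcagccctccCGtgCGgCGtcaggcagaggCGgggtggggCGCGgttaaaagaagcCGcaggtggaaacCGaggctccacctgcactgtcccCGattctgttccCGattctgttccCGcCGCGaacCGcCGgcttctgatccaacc

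These windows held 5 and 4 CG for Aqp4, 10 for Gja1 and 25 for Gjb6, against a median of 7 over 33469 windows. The share of all windows with as many CG or fewer was 43.7% and 38.0% for Aqp4, 61.0% for Gja1 and 84.8% for Gjb6. Gjb6 also had a second window, with 5 CG. Among the other members the count ran from 2 in the downstream window of Slc1a2 to 47 in that of Slc4a4. The number of CG is a description of the windows, and no methylation was measured here.

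Other genes of water transport and of the complex that holds Aqp4 at the endfoot numbered 10 tested, with 3 higher and 0 lower at an unadjusted p under 0.05 and a median log2 fold change of 0.05. Utrn, the dystrophin relative of vascular endfeet, stood at 22.8 ± 1.58 CPM (SD, n = 5) in the sham group and 28.4 ± 3.89 CPM (SD, n = 5) in the stimulated group, a log2 difference of 0.32 (adjusted p = 0.412, edgeR). Trpv4, a calcium channel opened by cell swelling, and Aqp1, a water channel abundant in choroid plexus, were the others, both at a low level. Aqp1 lay between 0.0763 and 1.32 CPM in sham rats and reached 6.04 and 8.05 CPM in rats 7 and 10, with 0.50 to 1.22 CPM in the other stimulated rats. The choroid plexus marker Ttr reached 23.1 CPM in rat 10 and 14.4 CPM in rat 7, against 0.744 to 13.6 CPM in sham rats, and its part in the values of Aqp1 was not tested.

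The ratio of Aqp4 to Kcnj10, which share the endfoot membrane, was 2.82 to 3.76 in sham rats. It was 2.90, 4.76, 4.28, 3.70 and 4.66 in rats 6 to 10, so that rats 7, 8 and 10 exceeded all sham rats and rats 6 and 9 did not.

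Gja1 (NM_012567), the most abundant astrocyte connexin in most brain regions, stood at 355, 286, 300.3, 318 and 319 CPM in sham rats and at 345, 271, 344, 385 and 315 CPM in stimulated rats. Rat 7 was the lowest of all rats and rat 9 the highest. The means were 316 ± 26.1 and 332 ± 42.4 CPM (SD, n = 5 each) and the log2 fold change was 0.07 (SE 0.10, adjusted p = 0.838, edgeR).

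Gjb6 (NM_053388), the other main astrocyte connexin, stood at 55.8, 55.7, 39.9, 44.6 and 50.4 CPM in sham rats and at 58.5, 15.1, 71.1, 53.8 and 44.6 CPM in stimulated rats. Rat 7 was at 30.6% of the sham mean, with 325 counts (15.1 CPM, 95% Poisson interval 13.5 to 16.8 CPM, covering counting error only), while rat 8 was at 144%. The group means of 49.3 ± 6.99 and 48.6 ± 21.0 CPM (SD, n = 5 each) were close (log2 fold change -0.02, SE 0.28, adjusted p = 0.989, edgeR). The sign of that value depended on single rats: it was 0.21 without rat 7 and -0.21 without rat 8, and 0.0075 with scaling by library size alone. The ratio of Gja1 to Gjb6 was 5.13 to 7.53 in sham rats, 18.0 in rat 7 and 4.84 to 7.17 in the other stimulated rats.

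Among 11 other connexins, pannexins and their scaffold, 4 were higher and 1 lower at an unadjusted p under 0.05, with a median log2 fold change of 0.06. Panx1, a pannexin that forms large membrane pores, ranged from 6.98 to 10.3 CPM in sham rats and stood at 9.82, 25.9, 7.92, 23.8 and 14.7 CPM in rats 6 to 10. Rats 7, 9 and 10 were again the high ones (log2 fold change 0.92, SE 0.29, adjusted p = 0.396, edgeR). Of 8 oligodendrocyte markers 0 passed the unadjusted threshold. Their summed level was 2628 to 3742 CPM in the sham group and 2124 to 3503 CPM in the stimulated group, lowest in rat 7.

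**Figure D3:**
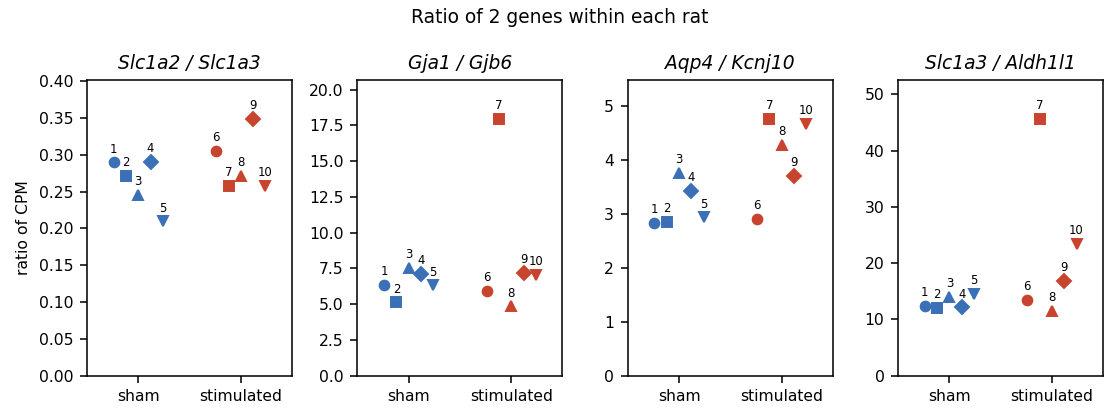
Ratio of the CPM of a pair of genes within each rat (points, numbered by rat; sham in blue, stimulated in red; linear axes from 0). Rat 7 stands at 18.0 for Gja1 over Gjb6 and 45.7 for Slc1a3 over Aldh1l1, above the sham ranges of 5.13 to 7.53 and 12.0 to 14.5.

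Aldh1l1 (NM_022547), a folate enzyme used as a marker of astrocytes in general, stood at 50.9, 42.9, 40.5, 45.6 and 41.3 CPM in sham rats and at 43.3, 16.4, 53.3, 41.2 and 29.3 CPM in stimulated rats. Rats 7 and 10 were below the sham range, at 37.1% and 66.1% of the sham mean, and rat 8 above it. Rat 7 had 353 counts of this gene (95% Poisson interval 14.7 to 18.2 CPM). The means were 44.2 ± 4.20 and 36.7 ± 14.2 CPM (SD, n = 5 each), and the log2 fold change was -0.27 (SE 0.23, adjusted p = 0.720, edgeR), which was -0.08 without rat 7. The ratio of Slc1a3 to Aldh1l1 was 12.0 to 14.5 in sham rats and 13.5, 45.7, 11.5, 16.8 and 23.5 in rats 6 to 10. Both genes are used as markers of the same cells. In rats 7 and 10 Slc1a3 was above and Aldh1l1 below the sham range. In rat 9 Slc1a3 was above its sham range and Aldh1l1 within it.

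Slc4a4 (NM_053424), the sodium bicarbonate cotransporter, stood at 36.1, 36.7, 39.5, 35.5 and 31.0 CPM in sham rats and at 35.9, 35.2, 45.0, 54.3 and 29.2 CPM in stimulated rats. Rats 8 and 9 were above the sham range, rat 10 just below it and rats 6 and 7 within it. The means were 35.8 ± 3.07 and 39.9 ± 9.82 CPM (SD, n = 5 each), and the log2 fold change was 0.16 (SE 0.15, adjusted p = 0.751, edgeR). Without rat 9 it was 0.021.

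Of 15 tested genes for other acid-base, lactate and folate functions, 3 were higher and 1 lower at an unadjusted p under 0.05, and the median log2 fold change was 0.09. Slc4a3, an anion exchanger found mostly in neurons, was lower: it ranged from 116 to 139 CPM in sham rats and stood at 99.2, 70.4, 122, 102 and 95.2 CPM in rats 6 to 10, with rat 8 alone inside the sham range (log2 fold change -0.35, SE 0.12, adjusted p = 0.414, edgeR). Slc16a1, a lactate transporter, was at 27.2 ± 1.65 CPM (SD, n = 5) in the sham group and 32.6 ± 4.25 CPM (SD, n = 5) in the stimulated group. Its log2 fold change was 0.26 (adjusted p = 0.446, edgeR). The groups did not overlap, as in 1.29% of all features, but only just. The highest sham rat stood at 28.5 CPM and the lowest stimulated rat at 28.6 CPM. Slc16a3, a lactate exporter, was at 14.7 CPM in rat 7 and between 0.70 and 1.84 CPM in the other 9 rats.

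Seen by rat, the 9 genes did not all lie on the same side of the sham range. In rat 6, 4 genes were above the highest sham rat and 0 below the lowest, against 16.0% and 14.2% of all features. Rat 9 had 6 above and 0 below, against 25.6% and 23.7% of all features. Rat 8 had 5 above and 1 (Kcnj10) below, against 17.7% and 17.6%. In rat 7, 4 genes were above (Slc1a2, Slc1a3, Glul and Aqp4) and 3 below (Gja1, Gjb6 and Aldh1l1), while 28.8% of all features were above and 26.8% below. Rat 10 had 2 above (Slc1a3 and Aqp4) and 2 below (Aldh1l1 and Slc4a4), counts near the shares of all features (25.6% above and 24.1% below). The SD of log2 CPM was larger in stimulated than in sham rats in 9 of 9 genes, against 69.5% of all features. For Gjb6 it was 0.21 in sham and 0.88 in stimulated rats, for Aldh1l1 0.13 and 0.66, and for Slc1a2 it was 0.21 in both groups to this precision.

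**Figure D4:**
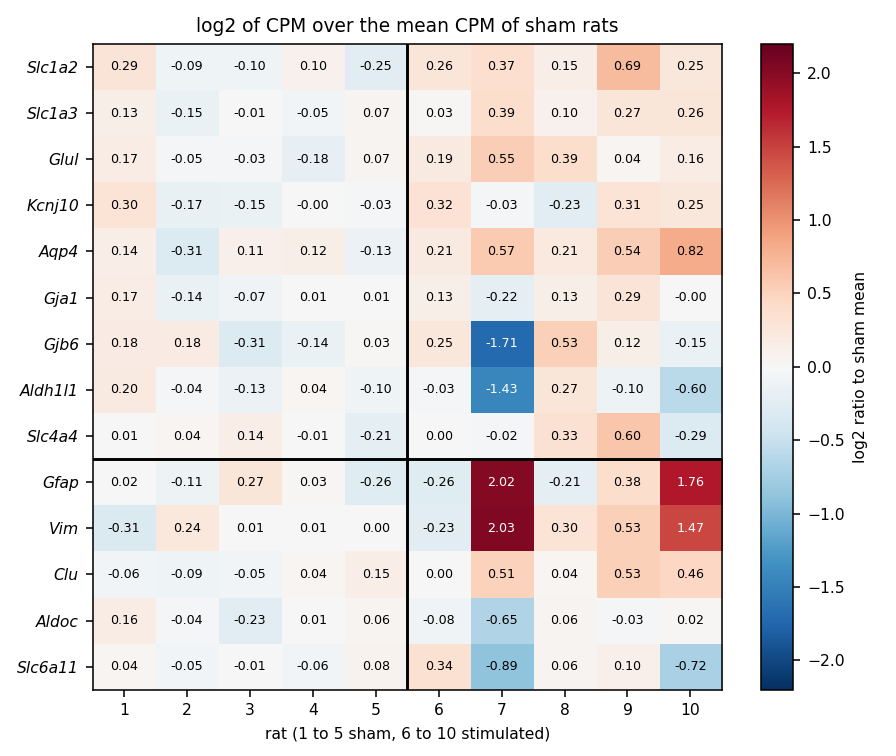
Log2 of the CPM in each rat over the mean CPM of the 5 sham rats, for the 9 genes (above the line) and 5 other astrocyte genes (below it); red is higher and blue lower than the sham mean, and the number in each cell is the value. In rat 7 Gfap stands at 2.02 and Gjb6 at -1.71.

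The stimulated rats also differed in genes outside the 9. Gfap, the astrocyte filament protein, ranged from 1327 to 1927 CPM in sham rats and stood at 1326, 6469, 1375, 2079 and 5396 CPM in rats 6 to 10 (log2 fold change 1.06, SE 0.38, adjusted p = 0.418, edgeR). Rats 7 and 10 were far above the sham range, rat 9 slightly above, and rats 6 and 8 not above it. Fos, a gene switched on by recent neuronal activity, was high in rats 7, 9 and 10 as well, at 5.61, 106, 5.24, 50.3 and 61.7 CPM in rats 6 to 10 against 3.26 to 5.32 CPM in sham rats. Of 12 genes known to be raised in reactive astrocytes, 10 were higher and 0 lower at an unadjusted p under 0.05. Over all features 6.7% were higher and 3.16% lower at that threshold. The median log2 fold change of the 12 was 1.47, and 0 passed the adjusted threshold. Per rat, the median log2 difference of the 12 from the sham mean was -0.20, 2.77, 0.08, 0.54 and 1.76 in rats 6 to 10. In sham rats it was -0.11 to 0.20, so rats 6 and 8 did not share the rise. Their summed level was 1430 to 2035 CPM in sham rats, 7520 CPM in rat 7 and 5691 CPM in rat 10. Gfap is 1 of the 12 and made up most of these sums, at 6469 CPM in rat 7 and 5396 CPM in rat 10.

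Of 16 other tested markers of astrocyte identity, 3 were higher and 0 lower at an unadjusted p under 0.05, with a median log2 fold change of 0.05. They were Clu, a secreted chaperone (0.33), Ppp1r3c, a regulator of glycogen synthesis (0.51), and Slc14a1, a urea transporter (0.69), with adjusted p of 0.409, 0.396 and 0.420 by edgeR. In rat 7, 10 of the 16 were below the sham range and 3 above it, beside 26.8% and 28.8% of all features. In rat 10, 2 were below and 8 above, beside 24.1% and 25.6%. Rat 9 had the most above the sham range, 10, with 1 below, beside 25.6% and 23.7%. In rat 6, 1 was below and 4 above, beside 14.2% and 16%. In rat 8, 0 were below and 2 above, beside 17.6% and 17.7%. The summed level of the 16 was 5162 to 6146 CPM in sham rats and 5170 to 6576 CPM in stimulated rats, with rat 7 at 5170 CPM and rat 10 at 6161 CPM. Among them Slc6a11, an astrocyte GABA transporter picked after its values were seen, was at 34.2 to 37.8 CPM in sham rats. It stood at 45.1, 19.3, 37.2, 38.4 and 21.8 CPM in rats 6 to 10. In rat 10 it was among the 2 markers below the sham range, while 8 were above. The part of these marker levels in the values of the 9 genes was not tested.

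**Figure D5:**
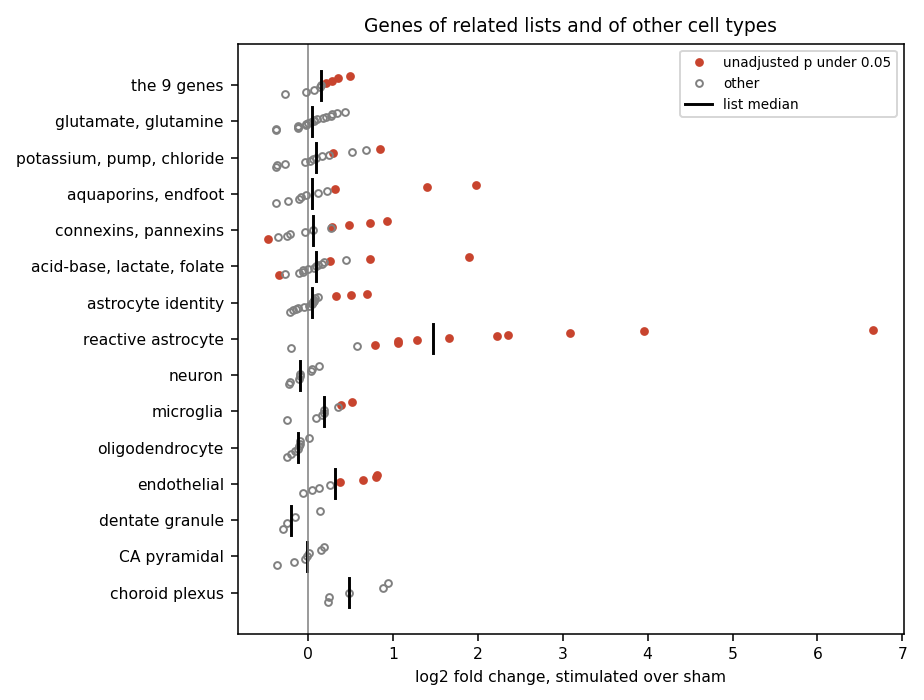
Log2 fold change, stimulated over sham, of each tested gene of the 9 and of 14 other lists (points; filled red where the unadjusted p was under 0.05, open grey otherwise) with the list median as a black line. The medians of the 9 genes and of reactive astrocyte genes are 0.16 and 1.47.

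Markers of other cells in the tissue were present and were compared in the same fit. Of 8 neuron markers 0 passed the unadjusted threshold (median log2 fold change -0.10, summed level 3515 to 3913 CPM in the sham group and 3229 to 3990 CPM in the stimulated group). Of 8 microglia markers 2 were higher at an unadjusted p under 0.05 (median 0.18, 329 to 423 and 360 to 572 CPM). Of 8 endothelial markers 4 were higher at that threshold (median 0.32, 194 to 209 and 178 to 366 CPM). The sum was highest in rat 10 and lowest in rat 7, where the markers differed in direction: the 4 higher ones (Pecam1, Flt1, Cdh5 and Esam) lay above every sham rat, at 28.1 CPM for Pecam1 against at most 16.9 CPM, and Slco1a4, a transporter of the blood-brain barrier, was at 8.22 CPM against 33.7 to 38.8 CPM in sham rats. The 8 oligodendrocyte markers had a median of -0.12. Of the 4 tested dentate granule cell markers and 7 pyramidal cell markers 0 passed, with medians of -0.20 and -0.01, and the summed dentate level was 342 to 423 CPM in sham rats and 206 CPM in rat 7. Of 5 choroid plexus markers 0 passed (median 0.49). Their sum was 2.23 to 16.9 CPM in the sham group and 7.24 to 27.0 CPM in the stimulated group, and Kl and Kcnj13 were at 0 in at least 1 rat.

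The 5 genes outside the set whose scaled log2 CPM over the 10 rats came nearest to the mean scaled profile of the 9 were Shroom4, Ranbp10, Ednra, Natd1 and Pcdhb6, at Euclidean distances of 1.24, 1.28, 1.28, 1.33 and 1.36. The median distance over all candidates was 4.20. The 9 genes themselves lay at 1.68 (Gja1) to 3.85 (Aldh1l1) from their own mean. The 5 were picked as the nearest of all candidates, so their shorter distances come from that choice and are no result about the 9. Ednra, an endothelin receptor, stood at 6.77 ± 0.789 CPM (SD, n = 5) in the sham group and 9.38 ± 2.45 CPM (SD, n = 5) in the stimulated group, highest in rat 9 at 13.5 CPM.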

How the data were processed

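Polyadenylated RNA of 5 sham and 5 stimulated rats was measured, and groups were taken from the source label of each sample. The deposited values are raw counts per RefSeq transcript, with no normalization. Per the methods, BWA placed the reads on RN4 and a script of the authors counted them over Ensembl regions; why rows carry RefSeq identifiers, how shared reads were counted and whether strand was used are not given in the sources used here, so values of genes that overlap another or have a near-identical copy are uncertain. The row of unaligned reads was left out of library sizes. The methods count fewer stimulated animals than the labels, so all 10 samples were kept and each was left out in turn. Gene symbols and the sequence windows came from RefSeq (GRCr8); the windows are the only positions printed.

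Features with a summed count of at least 46 (the 30th percentile) were tested in R 4.3.3 with edgeR 4.0.16 (TMM factors, glmQLFit, glmQLFTest, prior count 2 for log2 CPM), with Benjamini-Hochberg adjustment over all 22447. The standard error is the size of the log2 fold change over the square root of F. DESeq2 1.42.0, limma 3.58.1 and further settings were alternatives. The 9 genes and all gene lists were chosen with earlier results of these data known. All 9 genes are named, and from each other list the genes named were among the 4 with the lowest unadjusted p, plus Gfap, Fos and the 5 nearest profiles; Slc6a11, Slco1a4, Vim and Aldoc were chosen after their values were seen. Hepacam, Dtna, Dtnb, Shmt1, Sox9 and Dsp were not matched to a row and are not analysed here, and Tdo2 was below the filter. Single values of some genes of these lists are not reported here.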

Additional observations from a re-analysis of the deposited data

Results flagged for a closer look

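In groups of 5 rats, the gap from the most extreme rat to its nearest neighbour over the whole range of the group was compared with Dixon's critical value for 72 named genes. It was exceeded in 13 of 144 groups and in 0 of the 18 groups of the 9 astrocyte genes. For independent groups with normally spread values, about 7.2 of 144 would be expected. Many of these genes were chosen by their values in the same rats and are not independent, so 13 is not shown to be an excess. Rat 7 was the highest stimulated rat for Slc16a3 (gap over range 0.939), Osmr (0.872), Timp1 (0.711), Hspb1 (0.949) and Cd44 (0.829). Rat 10 was the lowest stimulated rat for Calb1 (0.753) and the highest for Bok (0.739), and rat 9 the highest for Shroom4 (0.799). Among sham rats, rat 2 was the lowest for Osmr (0.770) and the highest for Bok (0.786), rat 4 the highest for Fibcd1 (0.757), and rat 1 the highest for Shroom4 (0.930) and Pcdhb6 (0.781). Shroom4 and Pcdhb6, which are among the 5 nearest profiles, stood at 3.61 and 3.02 CPM in sham rat 1. Hspb1, a small heat shock protein, was at 415 CPM in rat 7 and at 7.65 to 28.6 CPM in the other stimulated rats.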

How the results depend on the processing

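None of the 9 genes passed the adjusted threshold under any of the 25 alternatives (15 of scaling, filter, rows or test, and 10 that left out 1 rat), and Aqp4, Slc1a2 and Glul passed the unadjusted threshold under all 25. Their direction and that of the other members was kept, except for Gjb6, at 0.0075 with library size alone and -0.21 to 0.21 when 1 rat was left out. Over these omissions Aqp4 ranged from 0.39 to 0.54. Among the 25 alternatives, the exact permutation test could pass no feature after adjustment. Its smallest possible p was too high for the number of features that reached it, so it could not decide the question. The count of features at an adjusted p under 0.05, 0 by quasi-likelihood, was 119 by the likelihood ratio test, 90 by edgeR's exact test and 33 by DESeq2; the cause was not tested. The split of features at an unadjusted p under 0.05, 1505 higher and 709 lower, became 1725 and 477 with library size alone, 1097 and 937 with limma-voom, and 879 and 774 with the exact permutation test. Among other named genes, Kl was -0.44 with limma-voom, and the ranges over omitted rats crossed 0 for Fibcd1 (-0.46 to 0.072), Prox1 (-0.12 to 0.25), Calb1 (-0.25 to 0.024), Bok (-0.0061 to 0.25) and Ttr (-0.024 to 0.80). No paired analysis was possible because each rat has its own number and replicate numbers were given in accession order. The lowest count of the 9 genes in any rat was 325, for Gjb6 in rat 7, where counting error alone spans 13.5 to 16.8 CPM.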
